A study of Mus musculus with 2931 samples.

Results

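The genes described here are 10 genes of the Notch pathway, which cells use to signal to the cells they touch. They are the receptors Notch1 and Notch4, the ligands Dll1, Dll4, Jag1 and Jag2, and the target genes Hey1, Hey2, Heyl and Hes1. They were taken by symbol, and all 10 were found among the 18072 gene symbols of a table of read counts, where they held 0.123% of all reads. The table covers 2931 endothelial cells (EC), which form the inner lining of vessels, sorted singly into plates from the distal lung of 10 mice, with libraries cut by the Tn5 transposase. Every group had 1 female and 1 male mouse. The groups were embryonic day E18.5 (591 cells), postnatal days P1 (550 cells), P7 (555 cells) and P21 (707 cells), all labelled as normal, and P7 labelled as hyperoxia (528 cells), which means breathing raised oxygen. The oxygen level, its duration, the strain, and whether each mouse name is a single animal or several pooled are not given in the sources used here.

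Notch receptors sit in the cell membrane and bind Delta-like or Jagged ligands on a neighbouring cell. Binding lets ADAM10 and then gamma-secretase cut the receptor, and its inner part moves to the nucleus, joins the DNA-binding protein RBPJ and turns on genes such as the repressors of the Hey and Hes families. In blood vessels the pathway is known for its part in giving arteries their identity and in choosing the leading cells of new sprouts, with Dll4 and Notch1 as its best known pair.

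The promoters of 7 members were found in the RefSeq table on GRCm38.p6, and those of Hey1, Heyl and Hes1 were not. In the 250 bases before the start, the median of all 32851 promoters of the table was 6 CG pairs. The Notch1, Dll4 and Hey2 promoters held 16, 14 and 22 CG pairs and that of Notch4 held 4, while Jag2 held 54. The 4 stretches below are shown because they belong to the receptors and to the arterial ligand and target family, and because their CG pairs run from below the median to well above it; each is the part of the 250 bases that lies outside every annotated exon. The RefSeq start of Notch1 lies inside the longer GENCODE span of the gene given further on. In the first 3, capitals mark CG pairs (the capital at the start of Dll4 ends a pair that begins outside the stretch). In Hey2, capitals mark TTCCCA, which is the RBPJ core TGGGAA on the other strand.
Notch1 (chr2:26503825-26504072, minus strand): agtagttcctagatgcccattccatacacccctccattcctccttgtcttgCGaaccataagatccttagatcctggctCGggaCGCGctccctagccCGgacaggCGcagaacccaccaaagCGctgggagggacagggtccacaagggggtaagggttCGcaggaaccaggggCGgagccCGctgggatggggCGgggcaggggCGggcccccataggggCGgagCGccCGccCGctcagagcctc
Notch4 (chr17:34564045-34564267, plus strand): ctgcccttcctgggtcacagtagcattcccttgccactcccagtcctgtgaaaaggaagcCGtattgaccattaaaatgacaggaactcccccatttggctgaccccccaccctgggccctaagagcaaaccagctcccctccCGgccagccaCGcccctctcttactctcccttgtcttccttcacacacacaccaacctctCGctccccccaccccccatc
Dll4 (chr2:119325565-119325783, plus strand): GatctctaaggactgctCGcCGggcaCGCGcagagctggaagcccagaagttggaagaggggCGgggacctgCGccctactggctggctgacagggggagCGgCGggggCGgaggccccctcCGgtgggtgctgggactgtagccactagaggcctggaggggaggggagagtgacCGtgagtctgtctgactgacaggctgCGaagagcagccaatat
Hey2 (chr10:30842802-30843033, minus strand): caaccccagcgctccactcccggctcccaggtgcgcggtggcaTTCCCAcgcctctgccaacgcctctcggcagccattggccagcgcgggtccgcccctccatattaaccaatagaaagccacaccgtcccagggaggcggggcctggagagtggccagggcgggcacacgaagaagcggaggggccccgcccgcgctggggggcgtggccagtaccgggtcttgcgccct
The RBPJ core, searched as TGGGAA on both strands, was present in 21.6% of all promoters of the table and in 1 member, Hey2, where it starts 207 bases before the gene. A match of 6 letters is a description of these letters alone.

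A cell had 42095 to 2967985 reads, with a median of 621406, and the median per mouse lay between 188609.5 (the male P7 mouse) and 928377. The authors' labels name 10 subtypes, here grouped into 7 classes: arterial EC (96 cells of I and 42 of II), Car4- capillaries (841 Early and 622 Late), Car4+ capillaries (332), venous (203), lymphatic (82), proliferative (390) and nonproliferative embryonic EC (313). The 10 cells labelled proliferative venous were left out. Sorting gates were CD31 for 2694 cells, a gate labelled mesench for 224 and CD45 for 13. Marker genes bore most of these names out. The summed level of 5 arterial markers was 3491 to 4615 CPM (reads per 1000000 reads of the same sum) over the mice in arterial EC and at most 2138 in any other class. The Car4+, lymphatic and proliferative lists did not overlap between the 7 classes either. The 4 venous markers did overlap, with 1776 to 8109 CPM in venous EC and up to 1935 CPM in arterial EC, and the 4 Car4- markers, with 4130 to 8244 CPM in Car4- capillaries, overlapped with venous (up to 8006 CPM), arterial (6475), proliferative (4867) and embryonic EC (4263). The sum of 4 endothelial markers was lowest, at 1388 CPM, in 1 lymphatic mouse and highest, at 6233 CPM, in 1 Car4+ mouse. The 9 sequencing runs cut across the groups: 1 run held the CD31-sorted female cells of E18.5, P1 and P21, another the CD31-sorted male cells of E18.5, P7, P21 and hyperoxia, and the CD31-sorted cells of the remaining mice were in 3 other runs.

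The subtype labels were made from the RNA of the same cells, so levels across labels are given as a description, with no test. Reads were summed per mouse and class, and a mouse counts where it has at least 4 cells of the class. Compared per kilobase of exon, the members of arterial EC stood in the order Hey1 (170.5 CPM per kb), Jag1 (151.3), Hes1 (120.1), Dll4 (86.5), Notch1 (33.6), Notch4 (23.5), Jag2 (22.4) and Dll1 (7.98). In Car4+ capillaries Hes1 led with 157.2 CPM per kb and Hey1 was at 1.49. In venous EC Hes1 (99.7 CPM per kb) and Jag1 (54.7) led, with Dll1 at 17.0, Dll4 at 0.782 and Hey1 at 3.67. Arterial EC I and II pooled thus came with high Hey1, Jag1 and Dll4, but these labels differed. The median Jag1 level was 201.0 CPM in arterial EC I and 1454 CPM in II, and that of Dll4 394.2 and 236.7 CPM. The venous label came with Jag1 and Dll1 as its leading ligands, and the Car4+ label with Dll4 and Jag2 but hardly any Hey1.

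**Figure D1:**
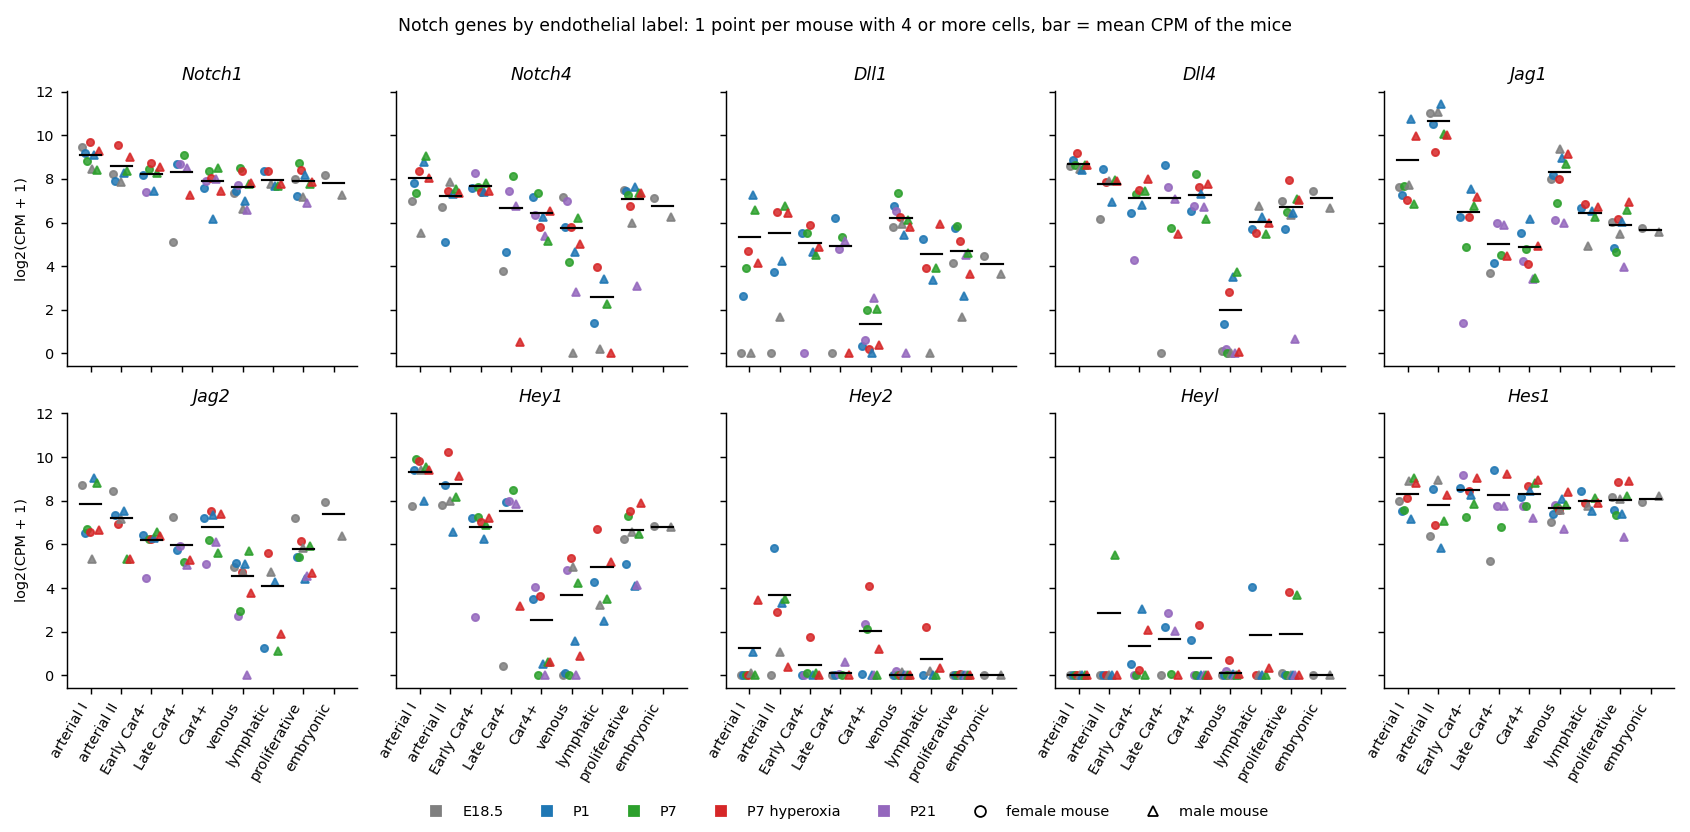
Level of the 10 Notch genes in 9 endothelial labels (x axis), as log2(CPM + 1) (y axis); each point is 1 mouse with 4 or more cells of the label, circles are female and triangles male mice, colours are the groups, and bars mark the mean CPM. Hey1 and Dll4 sit highest in arterial EC, Hey1 is at most 41.2 CPM in any mouse in Car4+ and venous EC, and the Hes1 points of neighbouring labels overlap.

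Notch1 (GRCm38 chr2:26457903-26516663, minus strand), the main endothelial Notch receptor, had reads in 80.9% of all cells and class means between 198.8 and 477.6 CPM. Its level in arterial EC was 316.3 CPM in the lowest mouse, 468.3 in the median and 798.7 in the highest (mean 477.6 ± 158.4, SD, n = 8). In Car4- capillaries it was 62.5, 354.0 and 423.2 CPM (lowest, median, highest; n = 9), and in Car4+ capillaries 69.9, 247.3 and 357.3 CPM (n = 8). Venous EC had the lowest mean, 198.8 ± 89.2 CPM (SD, n = 10). No neighbouring labels in the order of the Notch1 means were apart: their mice overlapped at every step.

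Notch4 (chr17:34564268-34588503, plus strand), a receptor known mostly from endothelium, differed more between the labels. Arterial EC had 88.1, 197.6 and 287.6 CPM (lowest, median, highest; n = 8) and Car4- capillaries 35.6, 166.8 and 219.0 CPM (n = 9). Car4+ capillaries had 35.04, 77.5 and 160.6 CPM and venous EC 0, 42.8 and 144.0 CPM (n = 10). Lymphatic EC were almost without it, at 0, 2.72 and 14.7 CPM (n = 6). After each cell was thinned to 50000 reads, 9.76% of 82 lymphatic cells had a Notch4 read against 53.9% of 1459 Car4- cells, while Notch1 reads were found in 89.0% of the same lymphatic cells. Lymphatic EC thus had Notch1 at 248.8 ± 60.7 CPM (SD, n = 6) with little Notch4.

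Dll4 (chr2:119325784-119335962, plus strand), the ligand best known from arteries and sprouting vessels, had 175.9, 320.1 and 490.3 CPM in arterial EC (lowest, median, highest; n = 8). Car4- capillaries had 0, 143.9 and 248.5 CPM (n = 9) and Car4+ capillaries 70.0, 131.0 and 295.0 CPM (n = 8). Venous EC were close to 0, at 0, 0.120 and 12.1 CPM (n = 10), below every mouse of the lymphatic EC, the next class up (43.1 to 105.8 CPM, n = 6). The single Car4- value at 0 came from the female E18.5 mouse, which had 13 such cells, 12 of them labelled Late. A Dll4 read was found in 81.5% of 135 arterial cells, 42.2% of 332 Car4+ cells, 36.1% of 1459 Car4- cells and 5.97% of 201 venous cells, all thinned to 50000 reads.

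Dll1 (chr17:15367354-15376872, minus strand), a second Delta-like ligand, had a different distribution. Its highest class mean was in venous EC, with 0, 64.6 and 164.6 CPM (lowest, median, highest; n = 10), where the value of 0 came from the male P21 mouse with 4 cells. In Car4- capillaries it had 0, 27.8 and 59.0 CPM (n = 9) and in arterial EC 0, 27.1 and 104.2 CPM (n = 8). Car4+ capillaries hardly had it, at 0, 0.420 and 4.79 CPM (n = 8), below both embryonic EC mice (11.5 and 20.8 CPM). A Dll1 read was found in 44.8% of 201 thinned venous cells and in 1.81% of 332 Car4+ cells. Dll1 and Dll4 thus stood opposite each other in 2 classes: venous EC had Dll1 with almost no Dll4, and Car4+ capillaries had Dll4 with almost no Dll1.

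Jag1 (chr2:137081456-137116644, minus strand), a Jagged ligand known for signalling from endothelium to the smooth muscle around it, varied widely between mice. Arterial EC had 198.0, 768.5 and 2524 CPM (lowest, median, highest; n = 8), venous EC 61.8, 275.0 and 669.4 CPM (n = 10), Car4- capillaries 25.0, 71.1 and 182.2 CPM (n = 9) and Car4+ capillaries 9.79, 22.5 and 70.6 CPM (n = 8). Jag1 was thus high at both ends of the vessel tree and low in both capillary labels between them. A Jag1 read was found in 85.6% of thinned venous cells, 73.3% of arterial cells, 35.7% of Car4- cells and 13.9% of Car4+ cells.

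Jag2 (chr12:112907819-112929776, minus strand), the other Jagged ligand, was lower in venous EC, where Jag1 was high. Its levels were 63.1, 114.3 and 391.1 CPM in arterial EC (lowest, median, highest; n = 8), 33.8, 108.7 and 182.5 CPM in Car4+ capillaries (n = 8) and 31.5, 75.8 and 147.6 CPM in Car4- capillaries (n = 9). Venous EC had 0, 25.4 and 50.6 CPM (n = 10) and lymphatic EC 1.14, 10.4 and 46.9 CPM (n = 6). The embryonic EC of the 2 E18.5 mice had 247.5 and 81.5 CPM.

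Hey1 (chr3:8663359-8667256, minus strand), a repressor switched on by Notch and widely used as a readout of it, had class means from 4.87 CPM in Car4+ capillaries to 556.8 CPM in arterial EC, though mice of neighbouring classes overlapped. Arterial EC had 133.7, 599.1 and 981.7 CPM (lowest, median, highest; n = 8) and Car4- capillaries 0.315, 145.2 and 245.0 CPM (n = 9), where the lowest value again was the female E18.5 mouse. Lymphatic EC had 4.64, 14.5 and 104.2 CPM (n = 6), venous EC 0, 1.45 and 41.2 CPM (n = 10) and Car4+ capillaries 0, 0.527 and 15.5 CPM (n = 8). A Hey1 read was found in 86.7% of thinned arterial cells, 35.02% of Car4- cells, 3.48% of venous cells and 3.01% of Car4+ cells. Car4+ capillaries thus had Notch1 (69.0% of cells) and Dll4 but little Hey1.

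Hes1 (chr16:30064384-30067796, plus strand), another repressor under Notch control that other pathways also induce, did not follow Hey1. Its class means ran from 203.0 ± 65.9 CPM in venous EC (SD, n = 10) to 320.3 ± 123.2 in Car4+ capillaries (SD, n = 8), and arterial EC lay between them with 77.2, 220.8 and 477.6 CPM (lowest, median, highest; n = 8). All neighbours in the order of its means overlapped. A Hes1 read was found in 64.4% of arterial and 77.1% of Car4+ cells.

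Hey2 (chr10:30832359-30842801, minus strand), known as an arterial Hey gene, and Heyl (chr4:123233556-123249875, plus strand), known from the muscle cells around vessels, were scarce. Hey2 had 1304 reads in all, and 15 of 2931 cells had at least 10 of them. Of these reads, 44.2% came from Car4+ capillaries and 23.2% from the 42 cells of arterial EC II, and the highest mouse of arterial EC II had 56.7 CPM. No thinned venous (of 201) or proliferative cell (of 390) had a Hey2 read, which allows a share of up to 1.49% and 0.769% by the limit of 3 cells for a count of 0.

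Heyl had 3616 reads in all, with at least 10 in 24 cells, and 44.5% of its reads came from Late and 29.5% from Early Car4- capillaries. The cells with at least 10 Heyl reads had a median summed level of 32.8 CPM over 8 mural markers (genes of pericytes and smooth muscle), against 0 in all other cells. The part of mural RNA in the Heyl reads was not tested. The 10 cells with the most reads held 88.1% of the Hey2 reads and 81.5% of the Heyl reads, so the class means of both genes rest on a few cells.

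Within mice, the labels could be paired with the Car4- capillaries, the largest class. A gene was counted as on 1 side when it lay the same way in every mouse with 4 or more cells of both classes; 8 members passed the filter of a mean of 10 CPM in each pair (Hey2 and Heyl did not). In arterial EC 4 members were higher in all 7 mice and 0 lower, against 3.1% of the 8776 genes at that level that were higher and 3.27% that were lower. The 4 were Notch1, Dll4, Jag1 and Hey1, with median log2 ratios of 0.78, 1.46, 2.87 and 2.07 (on CPM + 1). Over all 8 members the median log2 ratio was 0.59, and over all genes -0.07.

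In Car4+ capillaries 0 members were higher and 4 were lower than Car4- capillaries in all 8 mice, beside 3.42% and 8.69% of 8619 genes. The 4 were Notch4 (median log2 ratio -1.13), Dll1 (-4.30), Jag1 (-1.93) and Hey1 (-5.98), and Notch1 was lower in 7 of 8 mice. Jag2 was higher in 6 of 8 mice and Dll4 in 3 of 8. The members' median log2 ratio was -0.89, and that of all genes -0.25.

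In venous EC 1 member, Jag1 (median log2 ratio 1.94), was higher in all 9 mice and 2, Jag2 (-2.23) and Hey1 (-4.63), were lower, beside 2.36% and 3.33% of 8825 genes. Dll1 was higher and Dll4 lower in 8 of 9 mice, as were Notch1 and Notch4 (lower in 8 of 9). Without the female E18.5 mouse, whose 13 Car4- cells are described above, 6 members were on 1 side in the remaining 8 mice: Jag1 higher, and Notch1, Notch4, Dll4, Jag2 and Hey1 lower. Any gene lies on 1 side more easily in fewer mice, and the share of all genes in these 8 mice is not given. On cells thinned to 50000 reads, with all 9 mice, Jag2 alone was on 1 side. The members' median log2 ratio was -1.10 and that of all genes -0.12.

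Lymphatic EC could be paired in 5 mice, where 0 members were higher and 4 lower: Notch4 (median log2 ratio -5.52), Jag2 (-4.47), Hey1 (-2.98) and Dll4 (-1.97). With so few mice, 12.3% of 9185 genes were higher and 12.9% lower in all of them. The summed level of 4 fibroblast markers was up to 2246 CPM in 1 lymphatic mouse, against at most 8.79 CPM in Car4- capillaries, and its part in these values was not tested. Proliferative EC differed least from Car4- capillaries, with 0 members higher and 1, Jag2 (-0.69), lower in all 8 mice, beside 4.48% and 2.35% of 8922 genes.

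Arterial EC I and II had different Jag1 levels. In the 7 mice with 4 or more cells of both, Jag1 was higher in arterial EC II in all 7 (1590 ± 764.8 against 507.2 ± 628.0 CPM, SD, median log2 ratio 3.22), and Notch1 (380.8 ± 185.9 against 562.7 ± 175.7 CPM) and Dll4 (214.2 ± 91.2 against 415.2 ± 82.7 CPM) were lower in all 7. That is 1 member higher and 2 lower, beside 1.29% and 1.73% of 8534 genes. The Jag1 gap was wide in 5 of the mice and narrow in both others: the male P1 mouse had 2784 against 1735 CPM and the male hyperoxia mouse 1039 against 1009 CPM. A Jag1 read was found in 97.6% of 42 thinned cells of arterial EC II and in 62.4% of 93 cells of arterial EC I, while Hey1 reads were found in 85.7% and 87.1%. Like shares of both labels thus had Hey1 reads, whose level was lower in arterial EC II in 5 of 7 mice, while Jag1 and Dll4 lay in opposite directions.

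**Figure D2:**
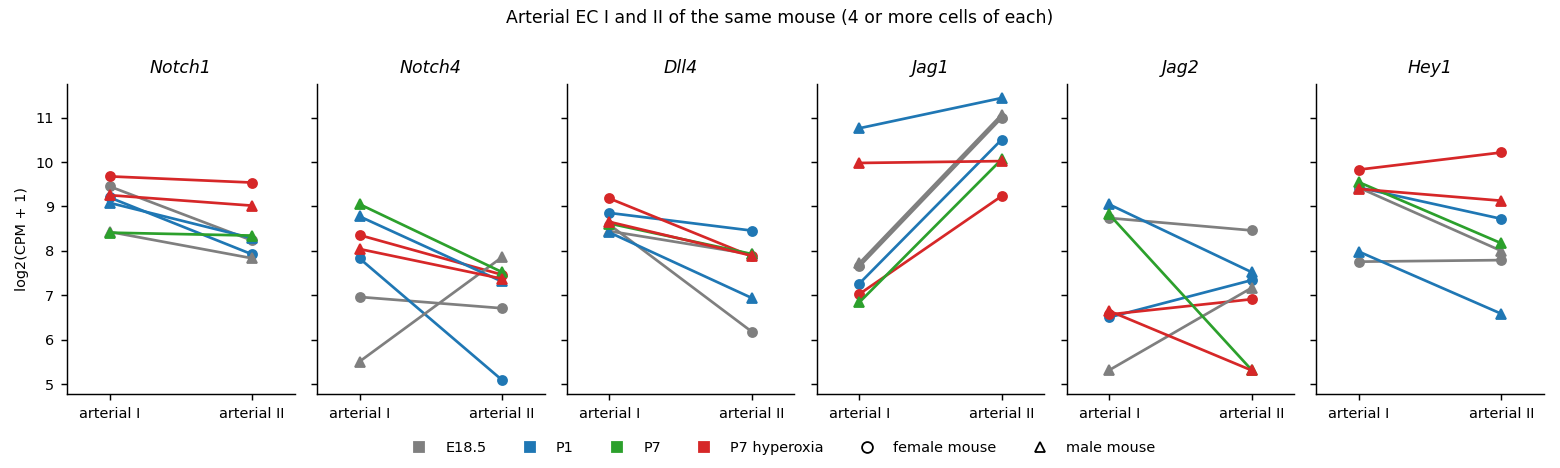
Level of 6 Notch genes in arterial EC I and II, as log2(CPM + 1) (y axis); each line joins the 2 labels of 1 mouse with 4 or more cells of both, coloured by group, with circles for female and triangles for male mice. Jag1 lines climb in all 7 mice, nearly flat in the male hyperoxia mouse, and Notch1 and Dll4 lines descend in all 7.

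Single cells showed which members occurred together. After thinning to 50000 reads, 52.4% of the 527 Car4- cells with a Dll4 read also had a Hey1 read, against 25.2% of the 932 Car4- cells without Dll4. The share was higher with Dll4 than without in each of the 8 mice with 8 or more cells of both kinds, by 18.6 to 48.9 percentage points. For Jag1 the same shares of Hey1 were 35.7% and 34.6%, higher with Jag1 in 4 of 8 mice, and for Jag2 36.6% and 34.5%, higher in 6 of 8. In Car4- cells Hey1 thus occurred more often beside Dll4, and at like shares with and without either Jagged ligand.

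In other classes the Hey1 shares of cells with and without Dll4 differed by class. Hey1 was read in 61.8% of embryonic cells with Dll4 and 27.9% of those without, in 52.6% and 26.9% of proliferative cells, and in 90.0% of 110 and 72.0% of 25 arterial cells. In lymphatic EC the shares were close, with 17.2% of 29 cells and 18.9% of 53. In Car4+ capillaries they were 4.29% of 140 and 2.08% of 192 cells, which rest on 6 cells with both genes. A Notch1 read was found in 86.5% of Car4- cells with Dll4 and 64.7% of those without, and the share was higher with Dll4 in 8 of 8 mice. Notch1 was also found more often beside the other ligands, in 82.5% of Car4- cells with Jag1 against 67.1% without and in 87.3% with Jag2 against 67.7% without. These shares pool Early and Late cells, of which 86.4% and 54.0% had a Notch1 read. With and without Dll4 they were 90.4% and 83.6% in Early and 79.5% and 43.2% in Late cells. With and without Jag1 they were 89.2% and 84.1% in Early and 65.8% and 50.3% in Late cells. Cells of 1 mouse are not replicates, and these shares are given with no test.

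**Figure D3:**
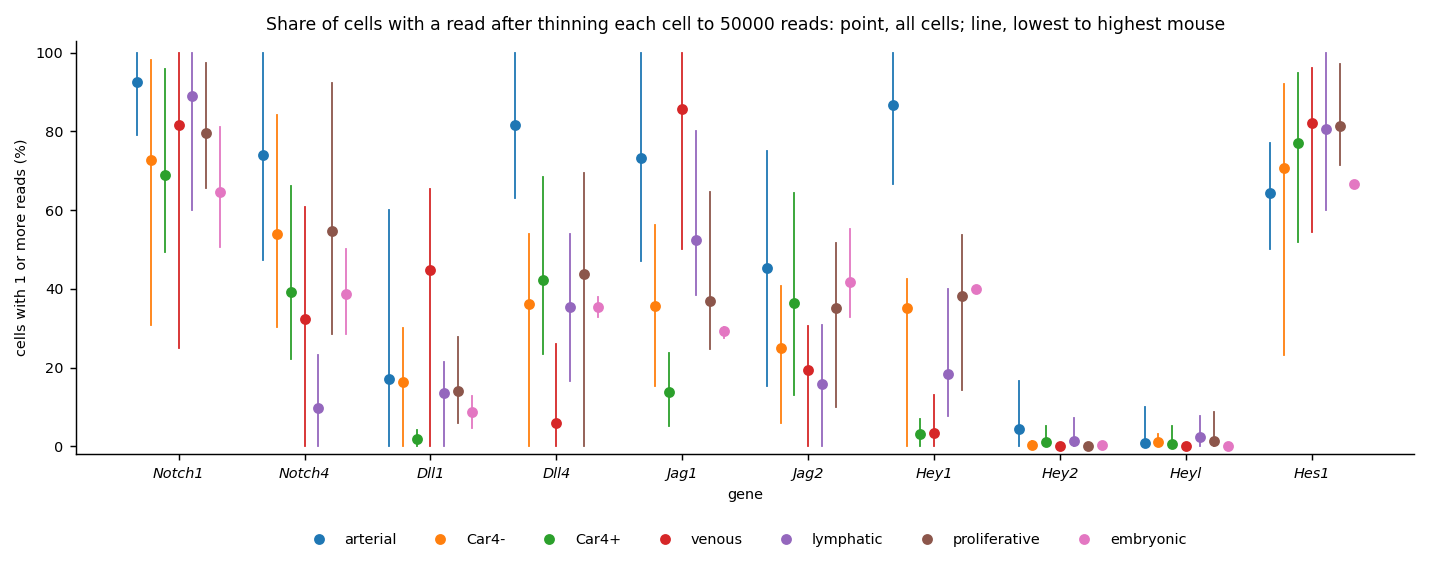
Share of cells with 1 or more reads of each Notch gene (x axis) in percent (y axis) after every cell was thinned to 50000 reads; points are the share over all cells of a class, coloured by class, and lines run from the lowest to the highest mouse. Hey1 is at 86.7% in arterial cells and at 3.01% in Car4+ cells, and Hey2 and Heyl are below 5% in every class.

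The genes most alike to each member were taken over 48 sums of a mouse and class with 8 or more cells, by Pearson's r of log2(CPM + 1) among 7144 genes with a mean of 20 CPM or more. The sums share mice and runs, so r is a description, with no p. Hey1 was closest to Sema3g (r = 0.822), a semaphorin, Pcsk5 (0.807) and Gja4 (0.799), a gap junction gene. Notch1 was closest to Efnb2 (0.741), the arterial ephrin ligand, Pnrc2 (0.690) and Ogdh (0.685). Notch4 was closest to Ace (0.815), the angiotensin-converting enzyme, Hipk2 (0.782) and Tmem100 (0.779). Dll4 was closest to Car2 (0.778), Arl15 (0.744) and Unc5b (0.740), a netrin receptor. Jag1 was closest to Eln (0.804), Col5a2 (0.800) and Fstl1 (0.791), of which Eln and Col5a2 encode the matrix proteins elastin and a collagen. Dll1 was closest to Mras (0.809), Specc1 (0.805) and P2ry2 (0.785), Jag2 to Mpped2 (0.681), Pdgfb (0.679) and Pdgfd (0.638), and Hes1 to Gyg (0.714), Sdc3 (0.705) and Rmnd5b (0.692). The scarce Hey2 and Heyl reached at most 0.591 (Gkn3) and 0.408 (Tmem127). Among the members themselves the closest pairs were Dll4 with Hey1 (0.572) and Notch1 with Hey1 (0.571).

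A list of 57 other pathway genes, of which 56 were in the table, was described in the same way. In arterial EC 42 of them reached a mean of 10 CPM, and 1 was higher and 4 lower than in Car4- capillaries in all 7 mice, with the shares of all genes as given above for the members. The higher one was Efnb2 (700.9 ± 310.7 against 230.2 ± 116.4 CPM, SD, n = 7), which is also on the arterial marker list. The lower ones were Neurl1b (1.27 against 23.8 CPM), a ubiquitin ligase of ligand uptake, the cyclin Ccnd1 (106.8 against 776.8 CPM), the corepressor Tle1 (36.6 against 99.0 CPM) and the Notch inhibitor Numb (50.02 against 92.9 CPM). In Car4+ capillaries 2 of 41 were higher, Mfng (439.8 against 215.5 CPM), a sugar transferase that modifies Notch receptors, and Maml3 (101.8 against 32.6 CPM), a coactivator of the receptor. The 5 that were lower included Myc (0.471 against 28.6 CPM), Neurl3 (26.7 against 69.6 CPM) and Efnb2 (119.2 against 317.2 CPM). Over all genes at that level, 3.42% were higher and 8.69% lower in these cells. Numb in arterial EC and Mfng in Car4+ capillaries lie outside the naming rule and were named after their values were seen.

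In lymphatic EC 9 of 44 were higher and 13 lower in all 5 mice, beside the 12.3% and 12.9% of all genes given above for so few mice. Notch2, another receptor, was at 169.0 ± 55.6 CPM in lymphatic EC and 12.1 ± 5.14 CPM in the Car4- capillaries of the same 5 mice, and Dtx1, a ubiquitin ligase of the pathway, at 86.1 against 0.0086 CPM. Mfng was at 15.8 against 245.9 CPM and Neurl3 at 0.472 against 68.2 CPM. Lymphatic EC thus had reads of both Notch1 and Notch2, with Notch4 near 0. In venous EC 0 of 41 were higher and 3 lower (Neurl1b, Ccnd1 and Numb), beside 2.36% and 3.33% of all genes. In proliferative EC 1 of 41 was higher (Neurl1b, 67.1 against 23.4 CPM) and 0 lower, beside 4.48% and 2.35% of all genes. In arterial EC II 0 of 39 were higher than in arterial EC I and 1 lower (Snw1), beside 1.29% and 1.73% of all genes.

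Ages and hyperoxia were compared with edgeR's quasi-likelihood test on the reads summed per mouse, where both mice of a group had 8 or more cells, in 16 comparisons of 6 class models. P-values were adjusted over all genes by the method of Benjamini and Hochberg, with 0.05 as the limit below which the adjusted p counted as a call. Of 148 tests of members, 0 were called; the lowest adjusted p was 0.292 (Heyl), and 12 tests (8.11%) had an unadjusted p under 0.05, beside 6.35% of the tests of all genes. DESeq2 called 6 of 145 tests of members, with 16 at an unadjusted p under 0.05, and limma 0 of 148, with 11. Over all genes DESeq2 called from 86 of 12326 to 701 of 13523 per comparison, with a median of 236 calls. Calls by edgeR were scarce over all genes too. The share of genes called by edgeR was 0.0167% in arterial EC for P1 against E18.5, and 0% there for P7 against P1 and 0% for hyperoxia against P7. It was 0% in Car4- capillaries for P7 against P1, 0.266% for P21 against P7 and 0.0136% for hyperoxia. It was 0% in Car4+ capillaries for P7 against P1, 0.00814% for P21 against P7 and 0% for hyperoxia. It was 0.0162% in venous EC for P1 against E18.5 and 0% for both later comparisons, 0% in each of the 3 comparisons of proliferative EC, and 0.494% for embryonic EC against P1 Car4- capillaries. Each member difference given below was therefore not called by edgeR unless a mouse was left out, and is shown with its values by mouse.

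**Figure D4:**
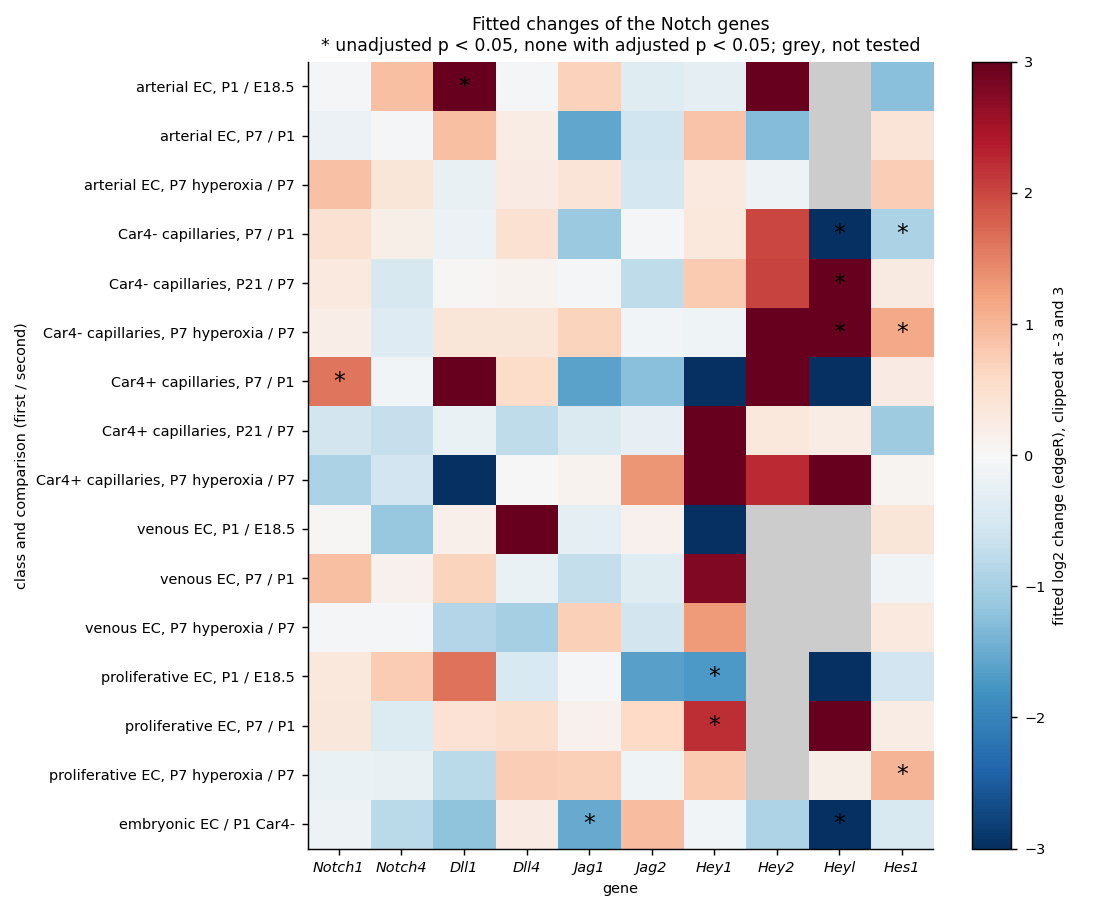
Fitted log2 change (colour, clipped at -3 and 3) of each Notch gene (x axis) in 16 comparisons of age or oxygen within a class (y axis, first group over second); stars mark an unadjusted edgeR p under 0.05 and grey marks genes not tested. The 12 stars fall on Notch1, Dll1, Jag1, Hey1, Heyl and Hes1, and 0 of the 148 tests passed the adjusted threshold.

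In Car4- capillaries, the class with most cells, Hes1 had the lowest unadjusted p of any member in the hyperoxia comparisons. The female and male P7 mice had 145.4 and 243.7 CPM and the hyperoxia mice 351.1 and 521.4 CPM, so the groups did not overlap. The fitted log2 change was 1.15 (SE 0.38), with an unadjusted p of 0.010 and an adjusted p of 0.887 by edgeR, beside 5.52% of all genes with an unadjusted p under 0.05. Between the 2 male mice, whose CD31-sorted cells shared a run, Hes1 was 521.4 against 252.5 CPM (log2 ratio 1.04). The 8 mural markers summed to 73.7 and 57.1 CPM in the hyperoxia mice and 18.4 and 33.7 CPM at P7, and the 6 stress genes (known to respond to cell handling) to 1429 and 1001 CPM against 924.2 and 2121 CPM. Their part in the result was not tested.

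In proliferative EC Hes1 was also higher in the hyperoxia mice. It had 159.4 and 295.5 CPM at P7 (female, male) and 455.8 and 471.1 CPM in hyperoxia, again without overlap (log2 change 1.03, SE 0.43, unadjusted p 0.036, adjusted p 1.0 by edgeR), beside 2.59% of all genes with an unadjusted p under 0.05. Within the run of the male mice the log2 ratio was 0.58. The mural markers summed to 108.0 and 73.0 CPM in hyperoxia and to 12.4 and 286.9 CPM at P7. The stress genes summed to 1677 and 788.1 CPM in hyperoxia and to 1061 and 2226 CPM at P7. The part of both marker lists in the result was not tested. In Car4+ capillaries Hes1 overlapped between the groups, with 217.6 and 455.1 CPM at P7 and 401.7 and 485.7 CPM in hyperoxia. In arterial EC it had 175.2 and 212.5 CPM at P7 and 238.4 and 375.8 CPM in hyperoxia (log2 change 0.73, adjusted p 1.0 by edgeR), and in venous EC 207.3 and 225.2 CPM against 190.0 and 331.4 CPM.

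With age, Hes1 in Car4- capillaries was at 401.4 and 303.8 CPM at P1 (female, male), 145.4 and 243.7 CPM at P7 and 218.8 and 213.1 CPM at P21. The P1 mice lay above the P7 mice (log2 change from P1 to P7 -0.95, SE 0.38, unadjusted p 0.026, adjusted p 0.406 by edgeR), in a comparison where 11.3% of all genes had an unadjusted p under 0.05. The summed level of 6 stress genes was 3031 and 2081 CPM at P1 and 924.2 and 2121 CPM at P7, so that the P1 and P7 values of the male mice were close; its part in the result was not tested. The CD31-sorted cells of P1 and P7 mice shared no run, so age and run cannot be told apart there.

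Hey1 in Car4- capillaries was at 154.6 and 73.7 CPM at P1, 177.9 and 115.8 CPM at P7 and 245.0 and 226.6 CPM at P21. The P21 mice lay above the P7 mice (log2 change 0.80, SE 0.39, unadjusted p 0.062, adjusted p 0.500 by edgeR), and 10.5% of all genes had an unadjusted p under 0.05 in that comparison. The Car4- class held different labels at these ages: 268 and 265 of its P21 cells were Late and 4 and 3 Early, against 44 and 2 Late and 162 and 114 Early at P7. For every Car4- gene, age from P7 to P21 and the change of label thus cannot be told apart. Among Late cells alone Hey1 was at 248.7 and 230.3 CPM at P21, and at 360.6 CPM in the 44 Late cells of the female P7 mouse. The stress genes summed to 4689 and 4517 CPM at P21 against 924.2 and 2121 CPM at P7, and their part in the result was not tested. In hyperoxia Hey1 had 129.4 and 145.2 CPM, inside the range of the P7 mice. Dll4 had 143.9 and 182.3 CPM at P7 and 177.5 and 248.5 CPM in hyperoxia, where the groups overlapped (log2 change 0.36, unadjusted p 0.34). In the CD31-sorted cells of the male mice, which shared a run, Dll4 was at 248.5 against 135.9 CPM (log2 ratio 0.87).

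The lowest unadjusted p of any member was that of Hey1 in proliferative EC. Its levels were 73.9 and 94.0 CPM at E18.5 (female, male), 33.6 and 16.2 CPM at P1, 155.4 and 88.6 CPM at P7 and 184.2 and 239.9 CPM in hyperoxia. P1 lay below both neighbouring ages without overlap (log2 change from E18.5 to P1 -1.73, SE 0.55, unadjusted p 0.0093, adjusted p 0.529; from P1 to P7 2.21, SE 0.56, unadjusted p 0.0022, adjusted p 0.417, by edgeR). Of all genes, 7.42% and 9.82% had an unadjusted p under 0.05 in these comparisons. The P1 values rest on 13 and 9 cells. The CD31-sorted cells of P1 and P7 mice shared no run, so age and run cannot be told apart from P1 to P7. The stress genes summed to 1073 and 1330 CPM at P1, against 3030 and 2463 CPM at E18.5 and 1061 and 2226 CPM at P7, and their part in the result was not tested. Without the female P1 mouse, the edgeR log2 change of Hey1 from P1 to P7 was 2.64. That fit held 1 P1 mouse and had more calls over all genes. With all mice, DESeq2 called Hey1 from P1 to P7 (log2 change 2.16, adjusted p 0.0081), among 592 of 11832 genes.

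In Car4+ capillaries Notch1 had 192.1 and 69.9 CPM at P1 (female, male) and 327.2 and 357.3 CPM at P7 (log2 change 1.60, SE 0.57, unadjusted p 0.014, adjusted p 0.730 by edgeR), with 6.28% of all genes at an unadjusted p under 0.05. At P21 it had 237.0 and 257.5 CPM and in hyperoxia 262.2 and 171.8 CPM. Jag2 lay the other way in the same cells, with 146.1 and 159.2 CPM at P1, 71.4 and 48.0 CPM at P7, and 182.5 and 167.1 CPM in hyperoxia. These Jag2 groups did not overlap, and neither comparison was called by edgeR. For P7 against P1 the log2 change was -1.26 (unadjusted p 0.079, adjusted p 0.730 by edgeR). For hyperoxia against P7 it was 1.32 (unadjusted p 0.067, adjusted p 0.731 by edgeR). Of the 24 cells of the male P7 mouse, 18 were CD31-sorted. In these alone Notch1 was at 239.0 and Jag2 at 97.5 CPM. Within the run of the male mice the log2 ratio of Jag2 in hyperoxia was 0.77. The CD31-sorted cells of P1 and P7 mice shared no run, so age and run cannot be told apart.

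In arterial EC, Dll1 had 6.84 and 51.6 CPM at P1 (female, male), against 0 and 0.515 CPM at E18.5. The fitted change had an unadjusted p of 0.0082 and an adjusted p of 0.967 by edgeR. Of all genes, 3.88% had an unadjusted p under 0.05 by edgeR. DESeq2 called the change (adjusted p 0.0020), among 219 of 10560 genes. The E18.5 sums held 8 Dll1 reads in all, so the fitted size is no bound and is not given. At P7 Dll1 had 13.1 and 104.2 CPM and in hyperoxia 41.0 and 52.0 CPM. Hey1, Dll4 and Notch1 of arterial EC overlapped between E18.5 and P1 and between P1 and P7. In hyperoxia Notch1 had 798.7 and 562.9 CPM against 427.1 and 327.2 CPM at P7 (log2 change 0.88, SE 0.55, unadjusted p 0.13, adjusted p 1.0 by edgeR).

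Embryonic EC of E18.5, which differ from P1 Car4- capillaries in both age and label, had Jag1 at 52.6 and 46.4 CPM against 71.1 and 182.1 CPM (log2 change -1.52, SE 0.61, unadjusted p 0.026, adjusted p 0.453 by edgeR), beside 9.42% of all genes with an unadjusted p under 0.05. Between the female mice, whose CD31-sorted cells shared a run, the log2 ratio of Jag1 was -0.44. The stress genes summed to 4718 and 4726 CPM in the embryonic EC and to 3031 and 2081 CPM in the P1 cells, and their part in the result was not tested. Hey1 overlapped between the same groups, with 112.2 and 108.7 CPM against 154.6 and 73.7 CPM. Venous EC had 0 members at an unadjusted p under 0.05 by edgeR in 3 comparisons of 8 members. Jag1 there was at 250.8 and 669.4 CPM at E18.5, 292.2 and 496.5 at P1, 117.2 and 408.8 at P7 and 257.7 and 562.0 CPM in hyperoxia. At P21, which was not tested in venous EC, its mean was 65.0 ± 4.46 CPM (SD, n = 2).

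Heyl accounts for 4 of the 12 lowest unadjusted p-values and rests on few reads. In Car4- capillaries it had 0.681 and 7.14 CPM at P1, 0.022 and 0 CPM at P7 (4 reads in all), 6.19 and 3.07 CPM at P21 and 0.168 and 3.14 CPM in hyperoxia. Embryonic EC had 0.010 and 0.015 CPM (3 reads in all). Its reads came from single cells, as given above, and DESeq2 called all 4 of these comparisons while edgeR called 0. In these comparisons DESeq2 called 182 to 701 genes. Its fitted sizes depend on sums near 0 and are not given.

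**Figure D5:**
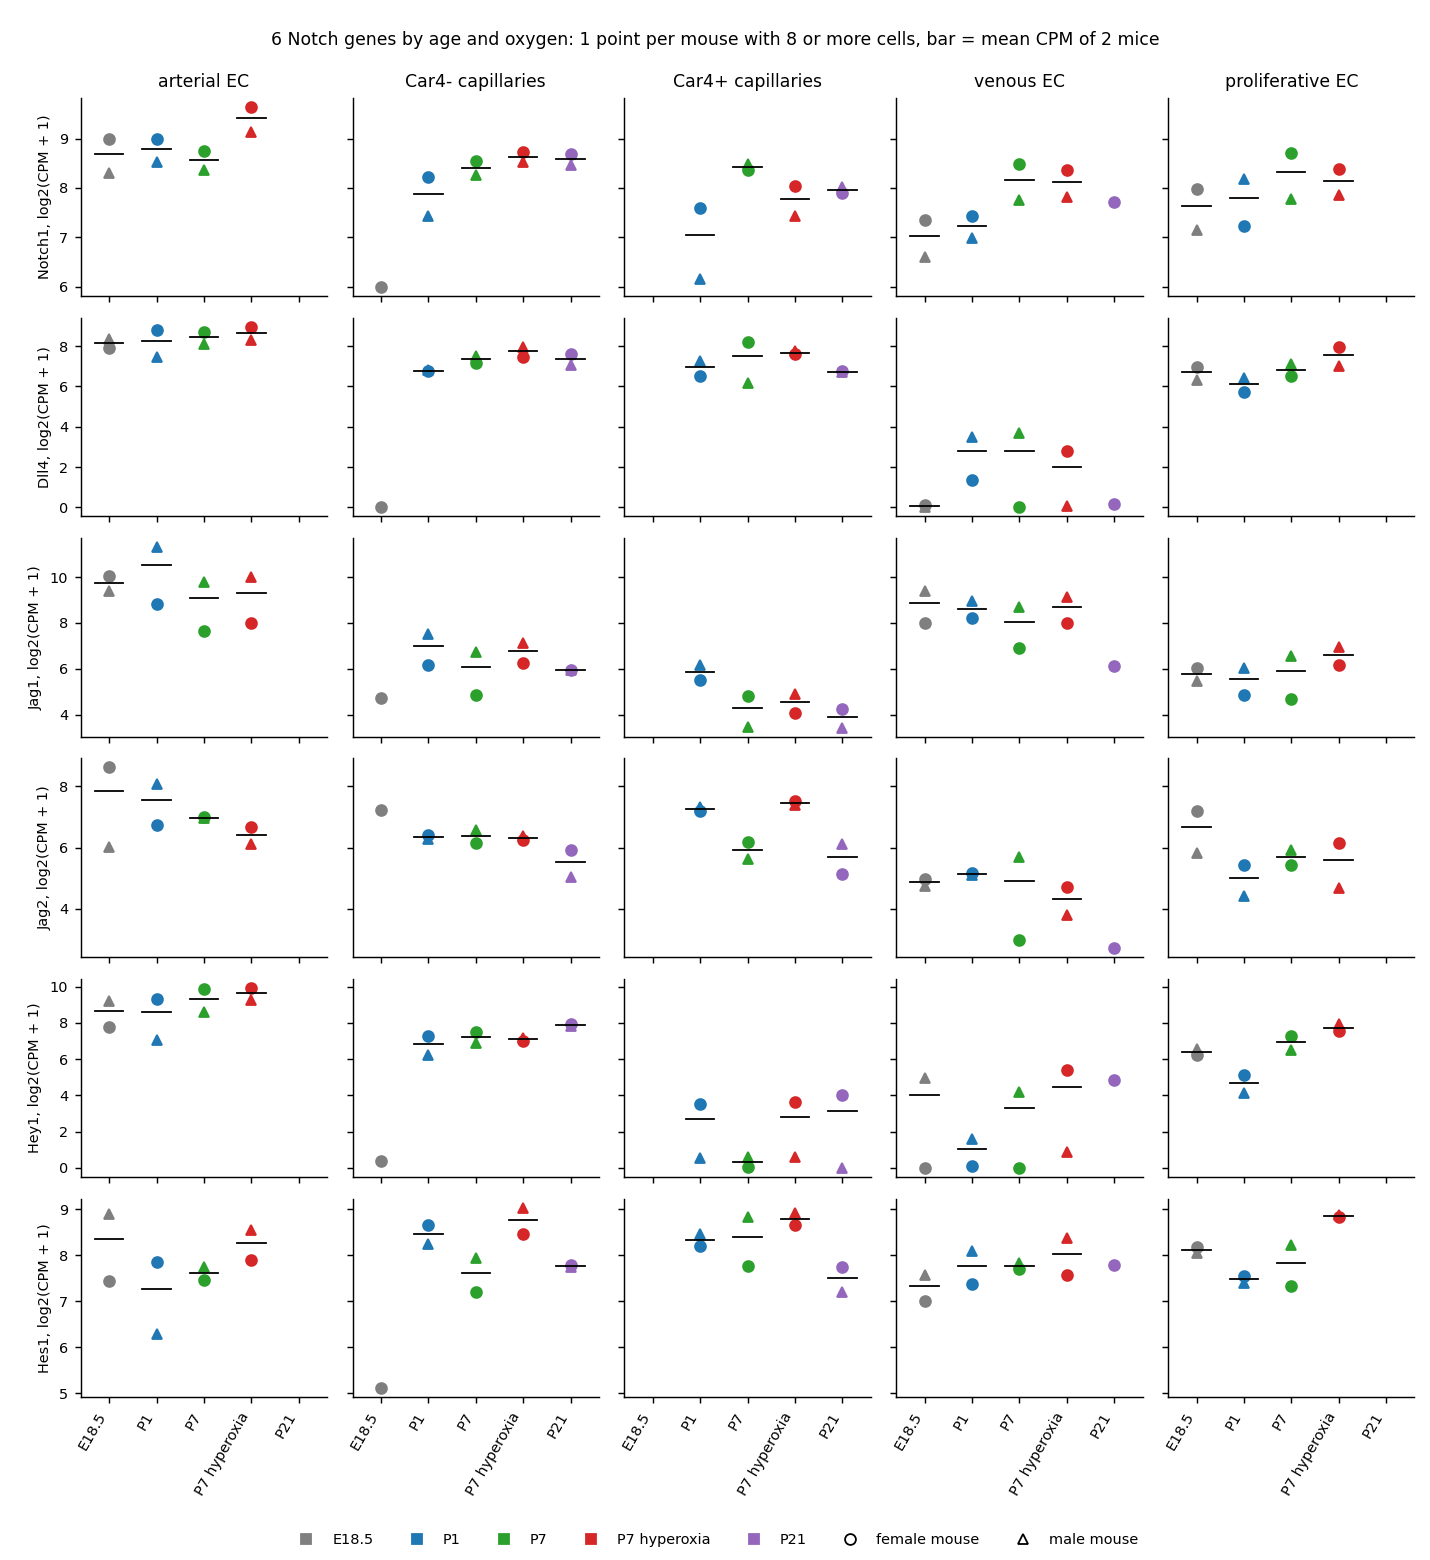
Level of 6 Notch genes (rows) in 5 classes (columns) by age and oxygen (x axis), as log2(CPM + 1) (y axis, scaled per gene); each point is 1 mouse with 8 or more cells, circles female and triangles male, and bars mark the mean CPM of 2 mice. Hes1 of Car4- and proliferative EC lies above both P7 mice in both hyperoxia mice, and Hey1 of proliferative EC is lowest at P1.

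Where a pair of mice of 1 sex shared a run, their CD31-sorted cells were compared alone. Such pairs, which are part of the groups above, gave 102 values over 11 comparisons, and 81 lay in the direction of the fit over both sexes. Of the 12 tests with an unadjusted p under 0.05, 8 had such a pair, and all 8 pairs lay in that direction. These pairs are part of the data that gave the p-values by which the tests were picked, so their direction is no separate support.

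For the wider pathway list, 0 of 748 tests were called by edgeR and 55 had an unadjusted p under 0.05. That is 7.35% of its tests, close to the 6.35% of all 207936 tests of genes in the same comparisons, so the genes named below are a description. Ccnd1, a cyclin, was at 456.9 ± 0.885 CPM in P7 Car4- capillaries and 1204 ± 149.9 CPM in hyperoxia (SD, n = 2; log2 change 1.37, SE 0.42, unadjusted p 0.0058, adjusted p 0.887), and in venous EC at 71.9 ± 65.5 and 390.0 ± 13.6 CPM (log2 change 2.49, adjusted p 1.0). Adam10, the protease that makes the first cut in the receptor, was lower at P7 than at P1 in Car4- (148.2 ± 49.0 against 451.9 ± 225.9 CPM, adjusted p 0.385) and in Car4+ capillaries (99.1 ± 15.5 against 591.1 ± 362.8 CPM, adjusted p 0.730). Neurl3, a ubiquitin ligase, had the lowest unadjusted p among the genes named from the list: in proliferative EC it was at 40.4 ± 1.16 CPM at E18.5, 125.9 ± 36.0 CPM at P1 and 10.8 ± 4.64 CPM at P7 (P7 against P1, log2 change -3.65, unadjusted p 0.00045, adjusted p 0.294). In arterial EC Fbxw7, which marks the cut receptor for destruction, was at 174.2 ± 60.1 CPM at E18.5, 21.5 ± 7.70 CPM at P1 and 85.8 ± 23.9 CPM at P7. Values of this list are by edgeR, with 2 mice in each group. For P7 against P1, age and run cannot be told apart in any class, as given above.

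Other genes named from the list are given by their group means, each with an unadjusted p under 0.05 and no overlap between mice. In Car4- capillaries Psen2 was at 40.6 ± 7.72 CPM at P1, 17.3 ± 1.89 CPM at P7 and 65.3 ± 45.2 CPM at P21. Neurl3 was at 88.9 CPM at P1 and 41.5 CPM at P7 there, and Myc, a growth regulator, at 26.0 CPM at P7 and 3.33 CPM at P21. Notch3, a receptor known from mural cells, was near 0 in these cells at P7 (0.014 CPM) and at 4.26 CPM at P21, and Dtx4 at 0.017 and 2.64 CPM. Notch3 is itself among the mural markers, which summed to 18.4 and 33.7 CPM at P7 and 33.9 and 58.8 CPM at P21. Of the P21 cells, 221 of 272 and 184 of 268 were CD31-sorted, against 197 of 206 and 111 of 116 at P7. The part of mural RNA and of the gates was not tested.

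In Car4+ capillaries Numb was at 168.5 ± 21.6 CPM at P7 and 68.1 ± 34.3 CPM in hyperoxia, and Adam10 at 99.1 and 321.6 CPM. Neurl1a had 13.3 ± 17.3 CPM at P7 and 1 read in hyperoxia. In arterial EC Itch, a ubiquitin ligase, was at 117.3 CPM at P1 and 24.2 CPM at P7, Nrarp, a Notch feedback inhibitor, at 30.0 CPM at P1 after 0.429 CPM at E18.5, and Dtx2 at 47.4 CPM at P7 with 0 reads in hyperoxia.

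In venous EC Ccnd1 was at 193.3 CPM at P1 after 22.3 CPM at E18.5, and Nrarp, Pofut1 and Poglut1 had 8.81, 18.9 and 18.3 CPM at P1 after 0, 0.544 and 0.885 CPM at E18.5; Pofut1 and Poglut1 add sugars to Notch receptors. In proliferative EC Tle1 was at 116.2 CPM at P1 after 23.9 CPM at E18.5, and Furin, the protease that processes the receptor on its way to the membrane, at 38.4 CPM at E18.5, 136.3 CPM at P1 and 32.2 CPM at P7. Fbxw7 was at 89.4 and 24.6 CPM at E18.5 and P1, Maml3 at 43.5 and 8.44 CPM at P1 and P7, and Dtx2 at 1.43 and 36.6 CPM. Embryonic EC lay below P1 Car4- capillaries in Numb (44.8 against 107.4 CPM), Furin (56.3 against 124.8 CPM), Fbxw7 (52.3 against 110.6 CPM) and Tle1 (49.7 against 105.5 CPM).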

How the data were processed

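The authors deposited whole read counts per gene symbol and cell, with no normalization. The submitters' processing notes name STAR 2.5.2b, HTSeq 0.10 and GRCh38, a human build name, without roles; the build and annotation behind the counts are therefore unclear, and positions are those of GENCODE M21 on GRCm38. The labels name no molecular identifiers, so reads copied by PCR may not be independent, and limits for counts of 0 cover counting error only.

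Reads were summed per mouse and class. CPM are reads scaled to 1000000 of the sum, and CPM per kb divide by exon length. Sums of at least 8 cells were tested with edgeR 4.0.16 in R 4.3.3 (TMM, filterByExpr, quasi-likelihood F test, all usable groups of a class in 1 model). With 2 mice per group, p-values measure the spread between mouse names, which may be technical. Alternatives were DESeq2 1.42.0, limma 3.58.1 on log2(mean CPM + 1), RLE, no filter beyond 1 read per gene, CD31-sorted cells alone, thinned cells, sex as a block and each mouse left out. Shares were taken on cells thinned to 50000 reads, leaving out 11 shallower cells.

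The members and gene lists were chosen with earlier results of these data known. All 10 members are named. Of the pathway list, genes are named where they lay on 1 side in every mouse, or where the unadjusted p was under 0.05 and the mice did not overlap, up to 4 per comparison by size. A gene of this list that the rule names is not reported here. The fit was tested on simulated data. Doublets were not called here.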

Additional observations from a re-analysis of the deposited data

Results flagged for a closer look

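In 2 genes the mice moved in opposite directions under hyperoxia in arterial EC and in Car4+ capillaries. In each class both hyperoxia mice lay on 1 side of both P7 mice. How many of all genes did so was not counted, and these differences were not tested. Notch1 had a fitted log2 change of 0.88 in arterial EC and -0.94 in Car4+ capillaries, a difference of 1.82. In CD31-sorted cells alone, Notch1 of the male P7 mouse was at 239.0 CPM in Car4+ capillaries. That lies below the female hyperoxia mouse, so the Notch1 groups overlapped there. Jag2 had a fitted log2 change of 1.32 in Car4+ capillaries and -0.52 in arterial EC, a difference of 1.84.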

How the results depend on the processing

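Over the alternatives, 237 of 245 counts of members called stayed at 0. With DESeq2 the count was 1 in each of 6 comparisons: Dll1 in arterial EC for P1 against E18.5 (adjusted p 0.0020), Hey1 in proliferative EC for P7 against P1 (adjusted p 0.0081), and Heyl in Car4- capillaries for P7 against P1 (adjusted p 0.0016), P21 against P7 (adjusted p 0.00064) and hyperoxia (adjusted p 0.026) and in embryonic EC against P1 Car4- capillaries (adjusted p 0.00038). DESeq2 also called 86 to 701 genes per comparison, with a median of 236, where edgeR called 0 to 74. Leaving out the female E18.5 mouse moved the count for Notch4 in venous EC, P1 against E18.5. Leaving out the female P1 mouse moved it for Hey1 in proliferative EC, P7 against P1. Calls over all genes rose as well in both fits, so neither is a result about the member alone. Both fits left 1 mouse in a group, so no p-value is given. A lone mouse is then assumed to vary like those of the other groups. With sex as a block, 0 of 148 tests were called and 15 had an unadjusted p under 0.05; no paired analysis was possible because mouse names do not tie mice of different groups together, beyond sex. Of members on 1 side against Car4- capillaries, venous EC had 3, with 1 (Jag2) on thinned cells and 3 to 6 with a mouse left out; proliferative EC had 1, with 0 on thinned cells, 0 by the mean CPM over cells and 1 to 2 with a mouse left out. Shares of all genes are not given for these alternatives, and the cause was not tested. Both these leave-outs for order were added after the data were seen. Shares of cells moved beyond their 95% exact binomial interval in 31 recomputations and stayed within it in 69. The recomputations thinned to 100000 reads or asked for 3 reads a cell, which changes what is counted. The interval takes cells as independent, which cells of 1 mouse are not, so it does not measure the spread between mice. Hey2 and Heyl had 1304 and 3616 reads in all, most of them in 10 cells.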
